A study of Mus musculus with 4 samples.

Results

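A group of 9 transcription factors and regulators of the mouse epidermis, Trp63, Klf4, Grhl1, Grhl3, Ovol1, Gata3, Maf, Hopx and Prdm1, was examined in total RNA from the epidermis of newborn pups. They are named as factors of epidermal differentiation and were chosen with earlier results of these data known, and all 9 had a row among the 54752 genes of each library. The pups were of the C57BL/6 strain at postnatal day 0, 2 of the genotype Skiv2l fl/fl K14-Cre and 2 controls named Skiv2l ctl. The knockouts carry Cre under the promoter of keratin 14, which is active in keratinocytes, so that these cells lose Skiv2l, the helicase that feeds RNA into the cytoplasmic exosome, while other cells of the epidermis keep it. Skiv2l ctl is a name the study gives to pups that are Skiv2l fl/fl, Skiv2l fl/+ or Skiv2l fl/+ K14-Cre, and which of these each control pup was is not given, so a control may itself carry Cre and a deleted allele.

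The epidermis renews itself from a basal layer whose cells divide, leave the basement membrane, and pass through a spinous and a granular layer before they become the dead cornified layer. The factor p63, encoded by Trp63, holds the identity of the basal cells, and a set of other factors is switched on as cells move up: GATA3, OVOL1, MAF, KLF4, the grainyhead-like factors GRHL1 and GRHL3, HOPX and PRDM1. Loss of several of them in mice disturbs the skin barrier, which has to be complete at birth.

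Promoter sequence was found for 6 of the 9 genes, in 8 windows of 250 bases before an annotated start (RefSeq, GRCm38.p6). Those of Gata3, Grhl3 and Hopx are shown because these genes lay at the lower end, near the threshold and at the upper end of the fold changes given below, and so that the windows can be compared. The Gata3 window is chr2:9878601-9878850, the Grhl3 window chr4:135573633-135573882 and the Hopx window, before the first of its 2 starts, chr5:77115124-77115373. All 3 are on the minus strand, written 5′ to 3′ and overlap no annotated exon of these genes. Capitals mark CACCC or its reverse complement GGGTG, the core letters of the sites that KLF factors bind.

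Gata3: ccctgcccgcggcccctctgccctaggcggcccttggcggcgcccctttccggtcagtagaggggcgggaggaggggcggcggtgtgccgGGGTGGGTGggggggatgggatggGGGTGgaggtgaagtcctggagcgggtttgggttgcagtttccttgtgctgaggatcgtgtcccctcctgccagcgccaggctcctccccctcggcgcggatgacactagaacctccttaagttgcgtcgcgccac
Grhl3: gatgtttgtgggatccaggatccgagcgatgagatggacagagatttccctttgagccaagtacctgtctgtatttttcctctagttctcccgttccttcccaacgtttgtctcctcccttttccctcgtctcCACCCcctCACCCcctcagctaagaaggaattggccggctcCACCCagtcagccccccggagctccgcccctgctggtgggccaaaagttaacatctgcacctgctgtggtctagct
Hopx: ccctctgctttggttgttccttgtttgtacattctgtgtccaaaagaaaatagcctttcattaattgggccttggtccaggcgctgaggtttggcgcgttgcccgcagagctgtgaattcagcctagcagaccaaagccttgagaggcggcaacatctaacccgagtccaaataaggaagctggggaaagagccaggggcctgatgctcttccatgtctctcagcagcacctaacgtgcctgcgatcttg

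CACCC, searched on both strands, occurred 3 times in the Gata3 window, the farthest with its first base 160 bases before the start, and 2 of the 3 occurrences lie 4 bases apart and share a base. It occurred 3 times in the Grhl3 window, 117, 109 and 76 bases before the start, and not in either Hopx window. The Klf4 and Prdm1 windows and the first Grhl1 window did not hold it, and the second Grhl1 window held it 2 times. Among all 32851 promoter windows of this length, 52.0% held CACCC. AACCGGTT, the site of grainyhead factors, was in none of the 8 windows and in 0.116% of all windows. AGATAA, a site of GATA factors, TGACTCA, the AP-1 site, and TATAAA, the TATA box, were also in none of the 8, against 9.99%, 4.46% and 12.4% of all windows. GC bases made up 70.0% of the Gata3 window, 56.0% of the Grhl3 window and 52.4% of the Hopx window shown, against a median of 52.4% over all windows. These letters describe the windows and do not show which factors bind there.

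Expression is given as FPKM, a fragment density corrected for the length of the transcript and for sequencing depth. Genotypes were compared with limma on log2(FPKM + 1) over 13609 protein-coding genes that exceeded an FPKM of 0.5 in 1 library or more. A gene was called where its Benjamini-Hochberg adjusted p was under 0.05, and fold changes are differences on this log2 scale, Skiv2l fl/fl K14-Cre minus Skiv2l ctl. The targeted gene, Skiv2l, was listed at 19.3 and 19.1 FPKM in the control pups and at 10.8 and 8.55 in the knockouts. The libraries held between 5.84 and 6.27 aligned gigabases, and the second knockout library had 16138 genes above an FPKM of 0.5 where the others had between 17384 and 17761. Over all tested genes the median fold change was -0.20, and -0.03 after median scaling, which gives all libraries 1 median FPKM, so the direction of small changes depends on the scaling. In bulk epidermis, fewer cells of a type and less RNA per cell cannot be told apart.

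Of the 9 factors, Hopx and Maf rose, Gata3 fell, and Trp63, Klf4, Grhl1, Grhl3, Ovol1 and Prdm1 did not pass the test (limma, n = 2 pups per genotype). All 9 passed the filter on FPKM, and all 9 did so in both genotypes. Among all tested genes 8.99% were called higher and 25.4% lower, against 2 and 1 of the 9. The median fold change of the 9 was 0.12. Both knockout libraries lay above both controls for Hopx, Maf and Grhl3, an order found in 18.2% of tested genes, and below both for Gata3 and Grhl1, an order found in 55.3%. With median scaling, 13.9% of tested genes were called higher and 11.9% lower, 53.9% of the calls being higher in place of 26.1%. Under this scaling the same 3 factors were called in the same direction, and Grhl3 was called higher as well.

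**Figure D1:**
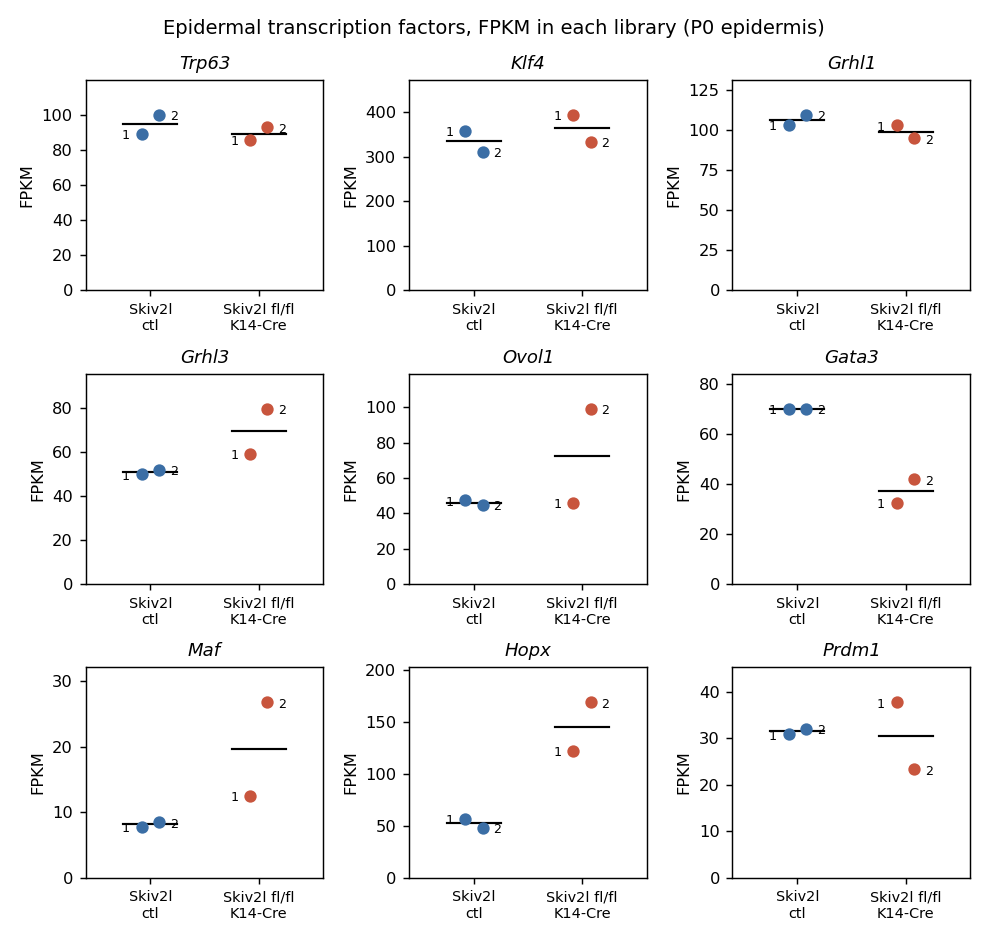
FPKM (y axis, from 0) of each of the 9 factors in the 2 Skiv2l ctl libraries (blue) and the 2 Skiv2l fl/fl K14-Cre libraries (red); numbers are replicate numbers and lines are group means. Hopx and Maf are higher and Gata3 is lower in both knockout libraries, and for Ovol1 and Maf the second knockout library lies far above the first.

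The levels of the factors, which FPKM makes comparable between genes, spread widely in control epidermis. Klf4 was the most abundant, at 335 ± 32.9 FPKM (SD, n = 2), followed by Grhl1 at 106 ± 4.44 and Trp63 at 94.4 ± 7.72. Gata3 stood at 70.2 ± 0.0125, Hopx at 52.4 ± 5.96, Grhl3 at 50.9 ± 1.44, Ovol1 at 46.1 ± 1.67 and Prdm1 at 31.5 ± 0.876 FPKM. Maf was the lowest, at 8.13 ± 0.493 FPKM, near the middle of all tested genes (percentile 51.2), while the others lay between percentiles 85.9 and 99.3. In this order only Hopx and Grhl3 were neighbors whose libraries overlapped. In knockout epidermis Klf4 was again first, at 364 ± 43.2, but Hopx was second, at 146 ± 33.1, and Gata3 had dropped from the fourth place to the seventh, at 37.2 ± 6.64 FPKM. There the libraries of Ovol1 and Grhl3, of Gata3 and Prdm1, and of Prdm1 and Maf overlapped, and Ovol1 also overlapped Grhl1 and Trp63.

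Trp63 (ENSMUSG00000022510.14, GRCm38 chromosome 16, 25683763 to 25892102, plus strand) encodes p63. Its FPKM was 88.9 and 99.9 in the control pups and 85.7 and 92.7 in the knockouts. The groups overlapped, and the log2 fold change was -0.08 (standard error, SE, 0.09, limma adjusted p = 0.528, 95% interval -0.31 to 0.15). The tables give 1 value for the gene, so the long TA and the short deltaN forms of p63, which start at different promoters, could not be told apart. Genes known as p63 targets were read as a list. Of 10, 3 rose and 3 fell, with a median fold change of -0.08, where 8.99% of all tested genes were called higher and 25.4% lower. After median scaling, 4 passed upward and 1 downward (median 0.13), and after quantile normalization 2 and 4 (median -0.14). Quantile normalization sets each value by its rank, and the very abundant Krt5 went from -0.21 as deposited to -1.16 there. The largest rise among the 10 was that of Krt14, the basal keratin, from 1736 and 1812 to 7381 and 7312 FPKM. The largest fall was that of Fras1, a basement membrane protein, from 26.7 and 25.99 to 8.74 and 10.4 FPKM. Krt14 had a log2 fold change of 2.05 (limma adjusted p = 0.000171) and Fras1 one of -1.37 (limma adjusted p = 0.000672). The keratin 14 promoter also drives Cre in the knockout pups.

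Klf4 (ENSMUSG00000003032.8, chromosome 4, 55527143 to 55532466, minus strand) is a zinc finger factor of the upper layers that is needed for the barrier. It was 358 and 311 FPKM in the control pups and 394 and 333 in the knockouts, so that the groups overlapped. The log2 fold change was 0.12 (SE 0.12, limma adjusted p = 0.457, 95% interval -0.17 to 0.41), and under quantile normalization it was -0.03. Its relative Klf5, which is expressed toward the basal layer, fell from 116 and 109 to 76.1 and 84.6 FPKM (log2 fold change -0.49, limma adjusted p = 0.0107), a call that was lost with median scaling (-0.27, limma adjusted p = 0.0881). Within each library the ratio of Klf4 to Klf5 does not depend on how libraries are scaled. It was 3.07 and 2.85 in the control pups and 5.18 and 3.94 in the knockouts, without overlap.

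Of the grainyhead-like factors, none was called. Grhl1 (ENSMUSG00000020656.16, chromosome 12, 24572283 to 24617391, plus strand), a regulator of desmosomal cadherins, was 103 and 109 FPKM in the control pups and 103 and 94.8 in the knockouts. Its knockout values lay below both controls by a small margin only, 102.97 against 103.15, and the log2 fold change was -0.10 (SE 0.09, limma adjusted p = 0.37, 95% interval -0.31 to 0.11) and 0.11 with median scaling. Grhl3 (ENSMUSG00000037188.7, chromosome 4, 135541888 to 135573630, minus strand), which is required for barrier formation, was 49.9 and 51.9 FPKM in the control pups and 59.4 and 79.9 in the knockouts. Both knockouts were above both controls, with a log2 fold change of 0.43 (SE 0.14, 95% interval 0.08 to 0.78) that did not pass the adjusted threshold (limma adjusted p = 0.0619). With median scaling the value was 0.64 and passed (limma adjusted p = 0.027). It was 0.64 without the first knockout library and 0.22 without the second, in fits that do not measure the spread between knockout pups. Grhl2, the family member of many simple and stratified epithelia, was 30.2 and 20.9 FPKM in the control pups and 23.8 and 27.4 in the knockouts, and the groups overlapped. The ratio of Grhl3 to Grhl1 within a library was 0.484 and 0.474 in the control pups and 0.577 and 0.842 in the knockouts, so the ratio was higher in both knockout pups, a difference that was not tested. Tgm1, the transglutaminase that cross-links the envelope and a known target of this family, was 138 and 138 FPKM in the control pups and 225 and 181 in the knockouts (log2 fold change 0.54, limma adjusted p = 0.0166). Of the desmoglein 1 genes, known as GRHL1 targets, Dsg1a had a log2 fold change of 0.09 (limma adjusted p = 0.473) and Dsg1b one of 1.16 (limma adjusted p = 0.000538), and reads of these near copies may be split uncertainly. Tgm1 and the desmogleins were picked after their values were seen.

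Ovol1 (ENSMUSG00000024922.1, chromosome 19, 5549137 to 5560575, minus strand) is a zinc finger repressor that helps suprabasal cells leave the cell cycle. Its FPKM was 47.2 and 44.9 in the control pups, 45.8 in the first knockout library and 99.2 in the second. The first knockout pup was thus within the range of the controls, and only the second lay above them. The log2 fold change was 0.54 (SE 0.32, limma adjusted p = 0.228, 95% interval -0.25 to 1.33). It was -0.01 without the second knockout library and 1.09 without the first, in fits that do not measure the spread between knockout pups. The difference between the knockout pups, 1.10 on the log2 scale, was larger than that of 99.5% of tested genes. Of the 75-base stretches of its transcripts, 18.2% occur in other genes, chiefly in Gm31166, a pseudogene on the other strand that was at most 0.936 FPKM in any library. Ovol2, its relative, was 2.64 and 3.32 FPKM in the control pups and 1.76 and 4.11 in the knockouts. Ovol2 was therefore also higher in the second knockout pup than in the first, and the ratio of Ovol1 to Ovol2 was 17.9 and 13.5 in the control pups and 26.04 and 24.1 in the knockouts.

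Gata3 (ENSMUSG00000015619.10, chromosome 2, 9857078 to 9890034, minus strand) is a zinc finger factor of the suprabasal epidermis that is needed for barrier lipids, and it is known as well for the inner root sheath of the hair follicle and for T cells. Its FPKM was 70.2 in both controls and 32.5 and 41.9 in the knockouts. Both knockouts were far below both controls, a mean 1.89 times lower, with a log2 fold change of -0.91 (SE 0.13, limma adjusted p = 0.00411). The fall was also present with median scaling (-0.70, limma adjusted p = 0.0139) and quantile normalization (-0.87, limma adjusted p = 0.0053). Without either control the fold change was -0.91, which follows from the near-equal values of the controls. It was -0.73 without the first knockout library and -1.09 without the second. Each of these fits leaves the spread of a group unmeasured. With no filter on FPKM the call was lost (limma adjusted p = 0.0837). 4930412O13Rik, a gene on the opposite strand whose span overlaps that of Gata3 but whose exons do not, went from 3.06 and 3.54 to 0.925 and 1.22 FPKM, the same direction as Gata3. Of the genes that share exon sequence with it, 9230102O04Rik was at most 1.36 FPKM and the antisense gene Gm13256 at most 1.10, and 0.63% of the 75-base stretches of Gata3 transcripts occur in these. Taf3, the nearest tested gene on one side at a distance of 24518 bases, was 4.36 and 3.65 FPKM in the control pups and 3.50 and 3.83 in the knockouts, and Celf2, 2347515 bases away on the other side, fell from 5.98 and 6.39 to 3.07 and 3.56 (limma adjusted p = 0.00654). Among the other epidermal factors the patterns nearest to that of Gata3 over the 4 libraries were those of Pou3f1 and Nr3c1, at Euclidean distances of 0.195 and 0.217 in centered log2(FPKM + 1).

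Markers of hair follicle and of leukocytes, which hold other cells that use Gata3, were read beside it. Of 13 hair follicle markers, all tested with limma, 7 fell and 0 rose, also at an unadjusted p under 0.05 (25.4% of all tested genes were called lower), and 5 fell with median scaling. The list was led by Shh, the signal of the growing follicle, from 11.7 and 12.6 to 2.39 and 2.82 FPKM (log2 fold change -1.87, limma adjusted p = 0.000319). The FPKM of the list summed to 141 and 186 in the control pups and to 80.9 and 83.2 in the knockouts. Of its inner root sheath members, Krt27 (log2 fold change -0.96, limma adjusted p = 0.0249) and Tchh (-1.12, limma adjusted p = 0.00252) fell, while Krt25, Krt28, Krt71, Krt72 and Krt73 did not pass, with fold changes from -0.62 to 0.33. Of 11 leukocyte markers 9 were tested, 3 fell and 0 rose (4 and 0 at an unadjusted p under 0.05 with limma). The 33.3% called lower is near the 25.4% of all tested genes. The list was led by Cd74 of antigen-presenting cells, from 13.1 and 16.4 to 4.61 and 4.39 FPKM (log2 fold change -1.51, limma adjusted p = 0.000857). That list summed to 36.1 and 52.4 FPKM in the control pups and to 25.95 and 21.7 in the knockouts, and Cd207, the marker of Langerhans cells, and Trdc, the constant region of the gamma-delta T cell receptor, were below 0.5 FPKM in all libraries. The T cell genes Cd3e and Cd3g did not pass, with fold changes of -0.17 and -0.29, and were at most 1.33 FPKM. The part of follicle and leukocyte RNA in the values of Gata3, Maf and Prdm1 was not tested.

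Maf (ENSMUSG00000055435.6, chromosome 8, 115682942 to 115707794, minus strand) is a leucine zipper factor of keratinocyte differentiation, and it is also found in macrophages and T cells. It was 7.79 and 8.48 FPKM in the control pups and 12.5 and 26.8 in the knockouts. Both knockouts were above both controls, the second by far the most, and the log2 fold change was 1.08 (SE 0.31, limma adjusted p = 0.0408). Without the second knockout library it was 0.57 and without the first 1.604, and it was 1.03 and 1.14 without the first and second control. Each of these fits leaves the spread of a group unmeasured. The call was lost with no filter on FPKM (limma adjusted p = 0.263) and when non-coding genes were included (0.0556). It was also lost with eBayes without a trend (limma adjusted p = 0.0558) and on read coverage in place of FPKM (0.0828). The difference between the knockout pups was larger than that of 99.4% of tested genes. Among the myeloid markers of the leukocyte list, Csf1r fell (log2 fold change -0.86, limma adjusted p = 0.0131), and Itgam, Lyz2, Mpeg1 and Fcer1g did not pass, with fold changes of -0.05, 0.16, -0.20 and -0.62. Of its nearest tested genes, Wwox, 330234 bases away, was 7.67 and 6.74 FPKM in the control pups and 8.01 and 7.44 in the knockouts, and Cdyl2, 866606 bases away on the other side, rose from 0.476 and 0.622 to 1.40 and 1.22 (log2 fold change 0.58, limma adjusted p = 0.0262).

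Hopx (ENSMUSG00000059325.14, chromosome 5, 77086988 to 77115121, minus strand) encodes a small homeodomain protein that does not bind DNA and acts through partner factors. Its FPKM was 56.6 and 48.2 in the control pups and 122 and 169 in the knockouts. Each knockout was more than 2 times as high as either control, with a mean ratio of 2.78 and a log2 fold change of 1.44 (SE 0.17, limma adjusted p = 0.00218). The rise was 1.65 with median scaling (limma adjusted p = 0.00172) and 1.44 with quantile normalization (limma adjusted p = 0.0023). It did not pass with no filter on FPKM (limma adjusted p = 0.0756). Without each library in turn it was between 1.21 and 1.68, in fits that leave the spread of a group unmeasured. Hopxos, an antisense gene that shares exon sequence with Hopx, went from 6.90 and 2.02 to 12.6 and 15.2 FPKM. Of the 75-base stretches of Hopx transcripts, 22.3% occur in Hopxos when both strands are searched, and whether the counting used strand is not given in the sources used here, so the values of Hopx and Hopxos cannot be told apart fully. At its highest Hopxos was 15.2 FPKM, against 169 for Hopx in the same library. The nearest tested genes did not pass the test: Arl9, 76382 bases away, was 0.140 and 0.228 FPKM in the control pups and 0.399 and 0.878 in the knockouts, and Rest, 150370 bases away, was 13.2 and 13.6 in the control pups and 10.1 and 12.7 in the knockouts. For both Hopx and Maf the nearest patterns among the other epidermal factors were those of Elf3 and Vdr, at distances of 0.517 and 0.735 from Hopx and 0.577 and 0.707 from Maf.

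Prdm1 (ENSMUSG00000038151.13, chromosome 10, 44437177 to 44528501, minus strand) encodes Blimp1, a repressor of the granular layer that is also known from plasma cells and T cells. It was 30.9 and 32.1 FPKM in the control pups and 37.8 and 23.4 in the knockouts. The first knockout pup lay above both controls and the second below both, and the log2 fold change was -0.08 (SE 0.21, limma adjusted p = 0.781, 95% interval -0.59 to 0.43). Without the first knockout library it was -0.42 and without the second 0.25, and these fits do not measure the spread between knockout pups. The difference between the knockout pups, 0.67 on the log2 scale, was larger than that of 97.5% of tested genes. In the second knockout pup, which had the fewest detected genes, Maf, Ovol1, Grhl3, Hopx, Gata3 and Trp63 were higher than in the first. Prdm1, Klf4 and Grhl1 were lower. This is the order within 1 pair of pups and was not tested.

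**Figure D2:**
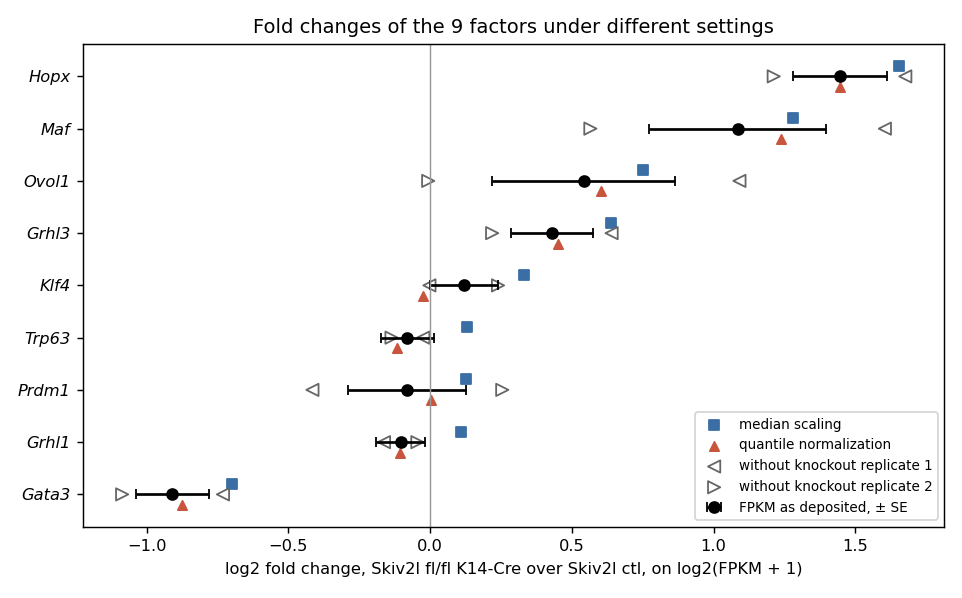
Log2 fold change of each factor on log2(FPKM + 1) (x axis), Skiv2l fl/fl K14-Cre over Skiv2l ctl, as deposited (black, bars ± SE), with median scaling (squares), with quantile normalization (red triangles) and without either knockout library (open triangles). Hopx, Maf and Grhl3 lie above 0 and Gata3 below 0 in every setting drawn. Klf4, Ovol1 and Prdm1 cross or reach 0 depending on the knockout library left out, and Trp63 and Grhl1 change sign with median scaling.

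Ratios within a library do not change with the scaling of libraries. The ratio of Hopx to Trp63 was 0.636 and 0.482 in the control pups and 1.43 and 1.83 in the knockouts. The ratio of Gata3 to Trp63, added after the values were seen, was 0.790 and 0.703 in the control pups and 0.380 and 0.453 in the knockouts. Between Hopx and Gata3, also added then, the ratio was 0.806 and 0.686 in the control pups and 3.76 and 4.03 in the knockouts, so that Gata3 was the more abundant in both controls and Hopx in both knockouts. The ratios of Klf4 to Trp63, 4.02 and 3.12 in the control pups and 4.603 and 3.598 in the knockouts, and of Prdm1 to Trp63, 0.347 and 0.322 in the control pups and 0.441 and 0.252 in the knockouts, overlapped between the genotypes. That of Grhl3 to Grhl2 was 1.65 and 2.49 in the control pups and 2.50 and 2.91 in the knockouts. For a single ratio the smallest two-sided p of an exact permutation test over 2 against 2 pups is 0.333, and none was made.

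**Figure D3:**
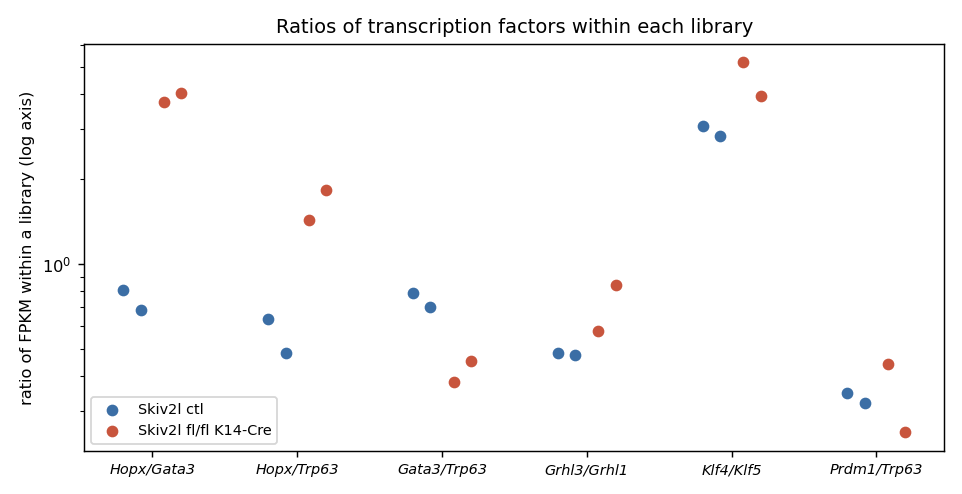
Ratio of the FPKM of 2 factors within each library (y axis, log scale) in Skiv2l ctl (blue) and Skiv2l fl/fl K14-Cre (red). The ratio of Hopx to Gata3 is 0.806 and 0.686 in the control pups and 3.76 and 4.03 in the knockouts, and that of Prdm1 to Trp63 overlaps between the genotypes.

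A list of 39 other transcription factors of the epidermis was read beside the 9. Of these, 38 were tested, 3 rose, 14 fell and 21 did not pass, with a median fold change of -0.27. In all tested genes 8.99% were called higher and 25.4% lower. After median scaling 3 of the 38 passed upward and 8 downward, and all 11 were among the 17 called without it. The 3 that rose were Ehf and Elf3, ETS factors of epithelia, and Vdr, the vitamin D receptor. Ehf went from 7.59 and 7.92 to 39.2 and 45.2 FPKM (log2 fold change 2.30, SE 0.10, limma adjusted p = 0.0001), well above any of the 9 factors in the size of its change. Elf3 went from 3.75 and 3.79 to 9.33 and 20.9 FPKM (log2 fold change 1.66, limma adjusted p = 0.0126), with the second knockout library again the higher, and Vdr from 8.21 and 10.4 to 17.0 and 18.3 (log2 fold change 0.87, limma adjusted p = 0.00486).

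Among the 14 that fell, the largest changes were those of Id3, an inhibitor of helix-loop-helix factors, Pou2f3, a POU factor of suprabasal cells, Tfap2b of the AP-2 family, and Satb1, a chromatin organizer known as a p63 target. Id3 went from 15.1 and 10.7 to 4.30 and 4.996 FPKM (log2 fold change -1.28, limma adjusted p = 0.00355). Pou2f3 went from 98.0 and 98.8 to 39.9 and 42.3 FPKM (log2 fold change -1.24, limma adjusted p = 0.000346). Tfap2b went from 29.97 and 29.1 to 11.4 and 12.7 FPKM, a log2 fold change of -1.22, and Satb1 from 38.5 and 38.6 to 16.5 and 16.5, one of -1.18. Pou3f1 had a log2 fold change of -0.78, Nr3c1, the glucocorticoid receptor, -0.73, Bcl11a -0.65 and Barx2 -0.62. These 8 were called with median scaling too. The fold changes of Klf5, Rbpj, the DNA-binding partner of Notch, Rxra, Cebpa, Tfap2a and Rora lay between -0.49 and -0.36, and none of these passed with median scaling.

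**Figure D4:**
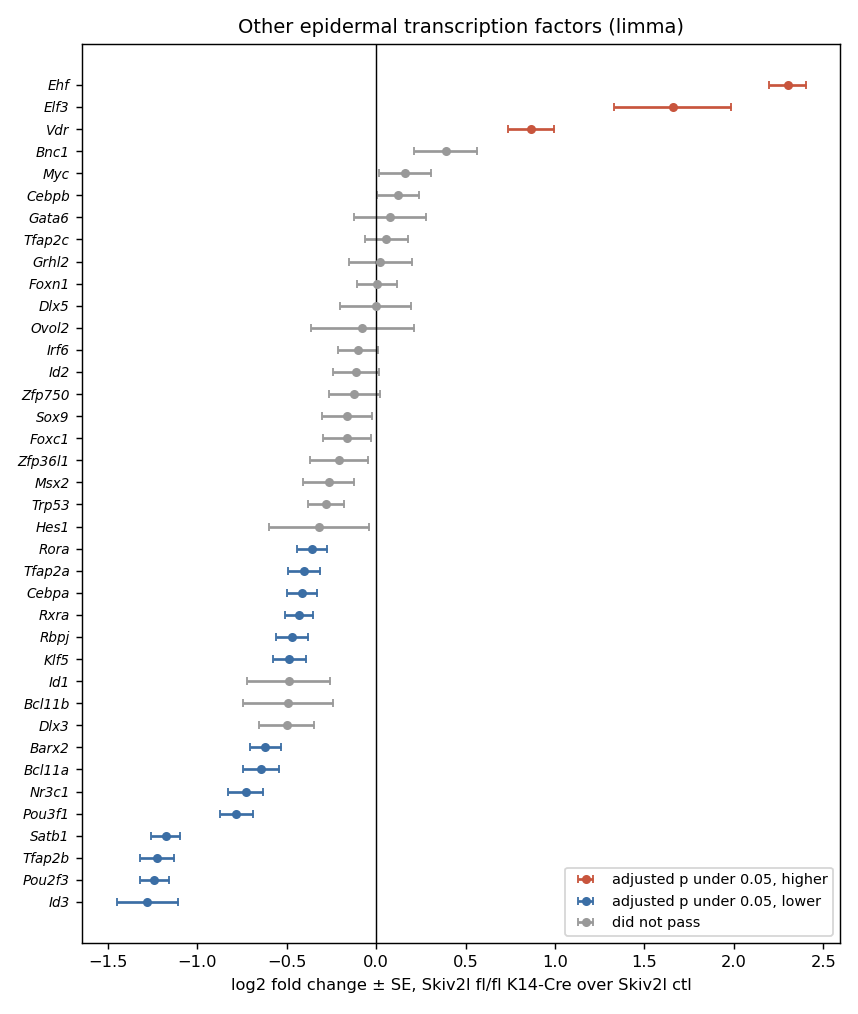
Log2 fold change ± SE (x axis) of the 38 tested transcription factors of the epidermis outside the 9, red where called higher, blue where called lower and gray where the test was not passed. Ehf, Elf3 and Vdr stand on the right and 14 factors, led by Id3 at -1.28, on the left.

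Genes of the epidermal layers were given by lists of their known markers, to be read against the 8.99% of all tested genes called higher and the 25.4% called lower. Of 13 basal genes 7 rose and 1 fell (median fold change 0.32), the fall being that of the basal keratin Krt15, from 462 and 428 to 92.1 and 155 FPKM. Of 11 spinous genes 2 rose and 3 fell (median -0.22), from Dsg1b, a desmoglein, at 1.16 to the keratin Krt77 at -3.04. Of 21 granular genes 8 rose and 3 fell (median -0.06), from Spink5, a protease inhibitor, at 1.06 to Flg2, a filaggrin relative, at -1.44. For the spinous list, the 27.3% called lower is near that background. With quantile normalization 7 basal, 2 spinous and 6 granular genes were called higher, and 2, 6 and 5 lower. Of all 13609 tested genes, 1683 were called higher and 1917 lower under that setting. Quantile normalization sets each value by its rank, which can shift the most abundant genes. The spinous gene Calm4 was called lower there (-0.86, limma adjusted p = 0.000493), though its FPKM was 2050 and 2058 in the control pups and 2079 and 2131 in the knockouts. Of 14 proliferation genes 0 rose and 10 fell (0 and 11 at an unadjusted p under 0.05 with limma, median fold change -0.49), led by Mcm2, a replication helicase subunit, at -0.88, and 5 fell with median scaling. Mki67, which encodes Ki67, was among the 10 (log2 fold change -0.64, limma adjusted p = 0.00514). By staining of the protein, the study reports more Ki67-positive basal keratinocytes in knockout pups of this age. RNA of bulk epidermis and stained cells are different measures, and how they relate was not tested. Among the keratinocyte markers of the labelled tissue, Krt5 was between 1759 and 2075 FPKM in all libraries.

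Other cells that could contribute to the tissue were read in the same way. Of 8 fibroblast markers 6 were tested with limma, 2 fell and 0 rose (2 and 1 at an unadjusted p under 0.05), led by Dcn, from 57.0 and 62.7 to 16.9 and 21.4 FPKM, while Col1a1 was at most 1.27 FPKM and Lum and Twist2 were below 0.5 in all libraries. Of 7 melanocyte markers 1, Tyrp1, rose (log2 fold change 0.83), and the list summed to 58.2 and 64.6 FPKM in the control pups and to 60.8 and 75.7 in the knockouts. Endothelial markers, 1 of 5 tested, summed to between 0.495 and 0.750 FPKM, all 5 muscle markers were below 0.5, and of the 4 Merkel cell markers 0 passed limma's test (2 were lower at an unadjusted p under 0.05). The part of these cells in the values of the 9 factors was not tested.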

How the data were processed

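Total RNA of the epidermis of 4 pups, 2 per genotype, was sequenced, and the authors deposited 1 table per library, made with a workflow of their institution on GRCm38, as per the labels. They gave FPKM, the main unit here, which the authors had corrected for transcript length and depth. TPM was deposited beside it and rescales each library to 1 fixed total. Coverage, also from the authors, is the mean read depth over a gene, and its most frequent ratio to FPKM was read as aligned gigabases. The aligner and the strandedness are not given in the sources used here. No read counts were used, so counting error is unknown, and the number of pups limits the precision.

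FPKM was summed per gene ID. Of 54752 genes, 21921 are protein-coding in GENCODE M21, whose coordinates equal those of the tables for 54029, and 13609 of these exceeded an FPKM of 0.5 in 1 library or more, the study's filter, and were tested with limma 3.58.1 (R 4.3.3, eBayes with a trend, two-sided, n = 2 per genotype) on log2(FPKM + 1), with a pseudocount of 1 and Benjamini-Hochberg adjustment over all of them. The script was tested on simulated data. The alternatives were a pseudocount of 0.1, FPKM above 1 in at least 2 libraries, no filter, all genes, TPM, quantile normalization, median scaling, eBayes without a trend, a block for the replicate number, and leaving out each library. Coverage per aligned gigabase was added after the data were seen. Leaving out a library leaves 1 pup in its group, whose spread is then not measured. For single genes only fold changes are given for these fits. Counts of called genes from them carry the same limit and stand only beside the main counts.

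The 9 genes and all lists were chosen with earlier results of these data known. Named were the 9 factors, Skiv2l, their relatives Grhl2, Ovol2 and Klf5, called genes of the list of other epidermal factors (at most 10 per direction, the rest in a range), of each further list the largest called rise and fall, overlapping and neighboring genes and the 2 nearest patterns. Genes named outside this rule (Tgm1, Dsg1a, Krt5, Mki67, Col1a1, Lum, Twist2 and further follicle and leukocyte markers) were picked after their values were seen. Where a symbol had several IDs, the one with the higher mean FPKM was used. Shared 75-base stretches were counted on GENCODE M21 transcripts. Protein sequences were not used here. A gene of the list of other epidermal factors is not reported here, and the counts of that list leave it out.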

Additional observations from a re-analysis of the deposited data

How the results depend on the processing

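The number of factors called higher, 2 in the main test, was 0 with no filter on FPKM, 1 with all genes, with eBayes without a trend and with coverage per aligned gigabase, and 1 to 4 without 1 library. The number called lower, 1, was 0 with no filter and 0 to 2 without 1 library. In the list of other epidermal factors, 3 higher and 14 lower, the counts were 1 and 6 with no filter, the lower count was 8 with median scaling, and without 1 library they ranged from 1 to 4 and from 5 to 16. Over all tested genes, 1223 higher and 3455 lower, the counts were 475 and 927 with no filter, 1894 and 1623 with median scaling, and 1917 lower with quantile normalization. Without 1 library they ranged from 497 to 1146 and from 805 to 3135, the fewest without the first control. With no filter, 21921 genes enter the fit and the adjustment in place of 13609, and standard errors changed too. That of Hopx went from 0.166 to 0.222 and that of Satb1 from 0.081 to 0.016.

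Signs turned for factors that did not pass the test, apart from Grhl3, which stayed above 0 in all 14 alternatives. With median scaling the fold changes were 0.13 for Trp63, 0.11 for Grhl1, 0.13 for Prdm1 and 0.080 for Ovol2, and with quantile normalization -0.025 for Klf4, 0.0039 for Prdm1 and 0.11 for Ovol2. Grhl2 was -0.023 with TPM and -0.060 with coverage. Without 1 library the fold changes ranged from -0.16 to 0.0025 for Trp63, from -0.0023 to 0.24 for Klf4, from -0.0066 to 1.09 for Ovol1, from -0.42 to 0.25 for Prdm1, from -0.23 to 0.28 for Grhl2 and from -0.52 to 0.37 for Ovol2. Hopx, Maf and Gata3 kept their direction in all 14 alternatives. In those that kept all libraries, limma adjusted p lay between 0.000369 and 0.0756, 0.00494 and 0.263, and 0.000829 and 0.0837. The cause of these changes was not tested.

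The replicate numbers do not mark shared animals, and the deviations of same-numbered pups had a correlation of -0.08. With the number as a replicate block the factors called were 3 higher, Grhl3 (limma adjusted p = 0.0225) beside Hopx and Maf, and 1 lower, the other epidermal factors 3 higher and 16 lower, and all tested genes 1264 higher and 3393 lower.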
